A study of Mus musculus with 9 samples.

Results

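The genes described here, 8 that mark B cells, Cd79a, Cd79b, Blk, Ms4a1, Fcer2a, Cr2, Ebf1 and Pax5, were followed through RNA-sequencing of myeloid-derived suppressor cells (MDSCs) isolated from mouse spleen. They were selected on their FPKM levels in these same samples and then taken by symbol, and 8 of the 23284 genes in each sample's table of values carried 1 of these symbols. The 9 samples fell into 3 groups, each with 3 replicates. PMN-MDSCs, the neutrophil-like subset, and Mo-MDSCs, the monocyte-like subset, came from p16/p21 wild-type mice labelled C57BL/6J, and a further group of Mo-MDSCs came from p16/p21 double-knockout (DKO) mice labelled C57BL/6. All mice carried tumours of SCT cells, a spindle cell tumour line that was itself derived from a p16-deficient mouse. The labels give an age of 3 weeks, which the study's methods give as the time from inoculation of adult mice to collection. The study isolated the cells with a kit for MDSCs, Ly6G+ cells as PMN-MDSCs and Ly6G-Gr-1+ cells as Mo-MDSCs, and no step described selected B cells. How many mice were pooled for a sample was not given in the sources used here, so the errors measure the spread between samples.

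B cells recognise antigen through a receptor made of immunoglobulin and the CD79 pair, whose cytoplasmic tails signal with the help of kinases of the Src family. EBF1 and PAX5 are the transcription factors that commit a progenitor to the B lineage and keep its genes active. The spleen is rich in mature B cells of the follicles and the marginal zone, which carry the complement receptor CR2 and, in the follicles, the IgE receptor CD23. Neutrophils and monocytes are not known as a main source of these transcripts.

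All 8 genes were detected in every sample, and most of them were among the more abundant transcripts. Levels are given as FPKM, fragments scaled to the length of the transcript and to the depth of the library, as deposited. The 8 genes together summed to between 1503 and 1735 FPKM in the PMN group, 1051 and 1191 FPKM in the WT Mo group and 1115 and 1440 FPKM in the DKO Mo group. This was 0.170% to 0.291% of the total FPKM of a sample. Cd79a stood between percentiles 99.0 and 99.4 of all genes by FPKM within a sample, and the lowest of the 8, Ebf1, between percentiles 72.8 and 82.3. Marks of the isolated subsets separated the same libraries to differing degrees. Of 8 monocyte genes, 7 were higher in the WT Mo group without overlap (26.2% of all genes). Of 9 neutrophil genes, 6 were lower (26.4%). Csf1r, the most abundant monocyte gene, overlapped, at 674 to 841 FPKM in the PMN group and 750 to 853 FPKM in the WT Mo group. The neutrophil gene S100a9 was at 47262 to 104216 FPKM and still at 6928 to 24489 FPKM. Ccr2, the chemokine receptor of monocytes, was at 2.36 to 2.51 FPKM in the PMN group and 281 to 362 FPKM in the WT Mo group. Cxcr2, the chemokine receptor of neutrophils, was at 590 to 875 FPKM in the PMN group and 6.87 to 18.6 FPKM in the WT Mo group. In the DKO Mo group Ccr2 was at 160 to 202 FPKM and Cxcr2 at 5.37 to 9.71 FPKM. In bulk samples fewer cells of a type and less RNA per cell cannot be told apart, so each value below is a level in the sample and not a number of B cells.

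**Figure D1:**
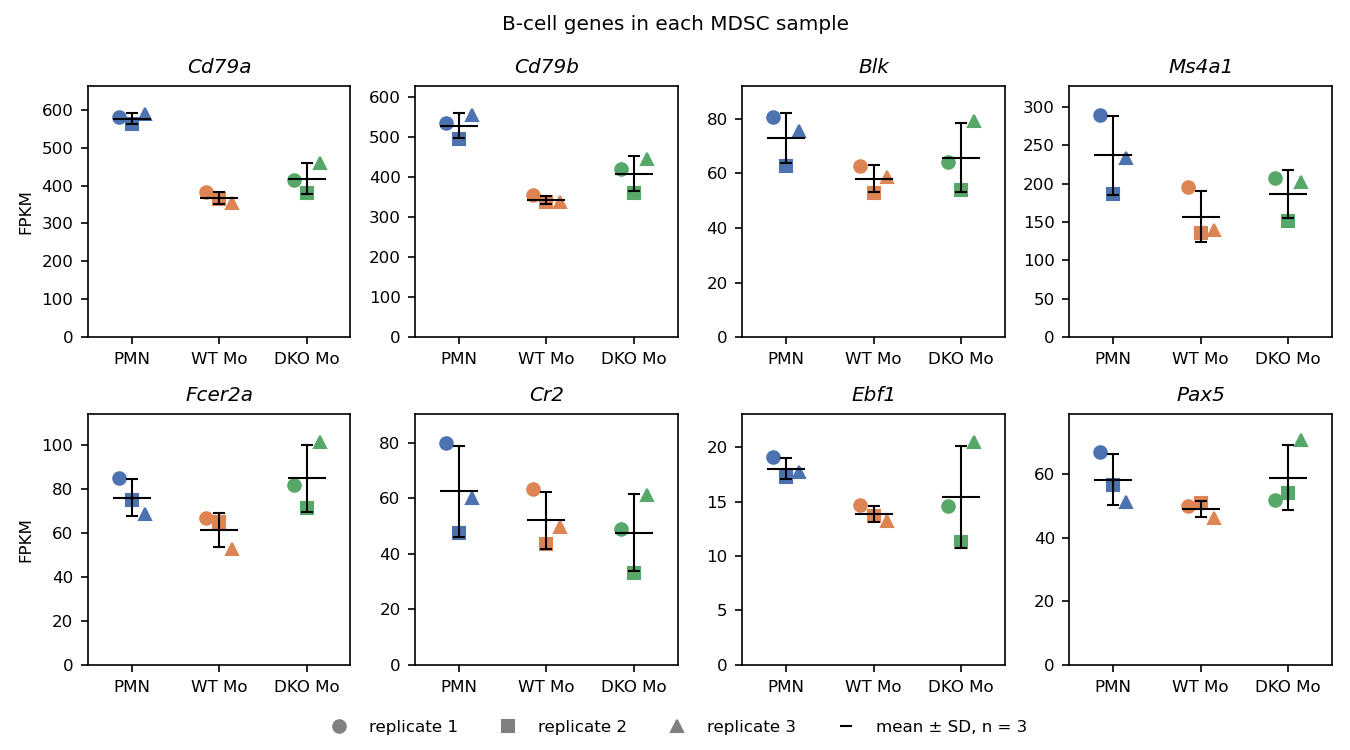
FPKM (y axis, from 0) of the 8 B-cell genes in the 9 samples, by group on the x axis; symbols are the replicates, and the black marks are the mean ± SD of 3 samples. Cd79a and Cd79b were higher in every PMN-MDSC sample than in every Mo-MDSC sample of either genotype, whereas the groups of Cr2 and Ms4a1 overlapped.

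Some facts about the libraries bear on the comparisons. The total FPKM differed between samples, from 494252 to 916642, while the upper quartile of the values lay between 22.0 and 24.5, and the 2 neutrophil genes S100a8 and S100a9 took between 12.5% and 22.3% of the total FPKM in the PMN group, 2.44% and 7.74% in the WT Mo group and 1.02% and 2.41% in the DKO Mo group. Bringing each sample to the same total moved the median log2 difference of all genes from 0.01 to 0.45 for the subsets, and from -0.02 to 0.14 for the genotypes. Of the genes targeted in the DKO mice, Cdkn1a was at 8.18, 6.46 and 8.04 FPKM in WT Mo-MDSCs and at 5.55, 8.52 and 6.00 FPKM in the samples labelled DKO (log2 difference -0.19, adjusted p = 0.637, limma), and Cdkn2a was under 1.5 FPKM in all 9 samples. The values summed per gene thus did not show the deletion, and the direction of every difference with genotype below rests on the label.

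The first group of genes encodes the signalling parts of the B-cell receptor. Cd79a (Gene ID 12518, chr7:24897497-24901858 in GRCm38) encodes CD79A, or Ig-alpha. Its FPKM was 581, 562 and 588 in the PMN group, 384, 364 and 353 in the WT Mo group and 414, 380 and 461 in the DKO Mo group. All 3 PMN-MDSC samples were above all 6 Mo-MDSC samples, and the WT and DKO Mo-MDSC samples overlapped. On the log2 scale of FPKM + 0.1, WT Mo-MDSCs were below PMN-MDSCs by a difference of -0.65 ± 0.077 (SE, n = 3 per group), a level 1.57-fold higher in PMN-MDSCs, and DKO Mo-MDSCs were above WT Mo-MDSCs by 0.19 ± 0.101.

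Cd79b (Gene ID 15985, chr11:106311341-106314562) encodes its partner CD79B, or Ig-beta. Its FPKM was 534, 495 and 555 in the PMN group, 354, 337 and 337 in the WT Mo group and 420, 360 and 445 in the DKO Mo group. No groups overlapped, and the order was PMN-MDSC, DKO Mo-MDSC and WT Mo-MDSC. The log2 differences were -0.62 ± 0.081 (SE) between the subsets and 0.25 ± 0.104 between the genotypes. The level of Cd79a relative to Cd79b was close to even throughout, from 0.986 to 1.14 over the 9 samples.

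Blk (Gene ID 12143, chr14:63372837-63417187) encodes a Src-family kinase of B cells that acts below the receptor. Its FPKM was 80.5, 62.7 and 75.5 in the PMN group, 62.6, 52.7 and 58.8 in the WT Mo group and 64.1, 53.9 and 79.1 in the DKO Mo group. The WT Mo-MDSC samples lay under the PMN-MDSC samples by a narrow margin, and the DKO samples overlapped with both other groups. The log2 differences were -0.32 ± 0.115 (SE) between the subsets and 0.16 ± 0.144 between the genotypes.

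The second group comprises proteins of the B-cell surface. Ms4a1 (Gene ID 12482, chr19:11249679-11266149) encodes CD20, a membrane protein of B cells from the pre-B stage until the plasma cell. Its FPKM was 289, 187 and 234 in the PMN group, 196, 136 and 140 in the WT Mo group and 208, 151 and 202 in the DKO Mo group. PMN-MDSC replicate 2 was below WT Mo-MDSC replicate 1, so the groups overlapped in both comparisons. The log2 difference was -0.59 ± 0.198 (SE) between the subsets, close to that of the Cd79 genes with a wider error, and 0.26 ± 0.178 between the genotypes.

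Fcer2a (Gene ID 14128, chr8:3680280-3694174) encodes CD23, the low-affinity IgE receptor. Its FPKM was 85.1, 74.9 and 68.5 in the PMN group, 67.0, 64.9 and 52.8 in the WT Mo group and 81.9, 71.6 and 102 in the DKO Mo group. The WT Mo-MDSC samples were below both other groups, and the DKO and PMN-MDSC samples overlapped. The log2 difference was -0.31 ± 0.122 (SE) between the subsets. Between the genotypes it was 0.46 ± 0.148, the largest of the 8 genes in that comparison.

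Cr2 (Gene ID 12902, chr1:195136811-195176880) encodes CD21, the complement receptor of mature B cells. Its FPKM was 79.9, 47.4 and 60.1 in the PMN group, 63.3, 43.4 and 49.5 in the WT Mo group and 48.8, 33.1 and 61.0 in the DKO Mo group. All groups overlapped, and the spread within a group (coefficient of variation 19.6% to 29.3%) was among the widest of the 8 genes. The log2 differences were -0.25 ± 0.211 (SE) between the subsets and -0.15 ± 0.229 between the genotypes, a negative value for DKO against WT that turned to 0.09 without DKO replicate 2.

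The third group holds the 2 transcription factors. Ebf1 (Gene ID 13591, chr11:44618100-45008096) had 19.1, 17.2 and 17.7 FPKM in the PMN group, 14.7, 13.7 and 13.3 FPKM in the WT Mo group and 14.6, 11.3 and 20.5 FPKM in the DKO Mo group. The WT groups did not overlap, while the DKO samples reached from below the lowest WT Mo-MDSC sample to above the highest PMN-MDSC sample. The log2 differences were -0.37 ± 0.081 (SE) between the subsets and 0.11 ± 0.197 between the genotypes, the latter turning to -0.11 without DKO replicate 3.

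Pax5 (Gene ID 18507, chr4:44524748-44710694) had 67.0, 56.7 and 51.3 FPKM in the PMN group, 50.1, 51.1 and 46.4 FPKM in the WT Mo group and 52.1, 54.1 and 70.7 FPKM in the DKO Mo group. The WT Mo-MDSC samples were the lowest, with gaps to the nearest sample of either other group that were small beside the spread. The log2 differences were -0.24 ± 0.109 (SE) between the subsets, the smallest of the 8, and 0.25 ± 0.125 between the genotypes.

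The starts of the genes were read for letters that B-lineage factors are known to bind, as a description of the genes only. RefSeq windows of 300 bases, 250 before the start of transcription and 50 after it (GRCm38.p6), were at hand for 5 of the 8 genes (Cd79a, Fcer2a, Cr2, Ebf1 and Pax5), with 8 windows in all because some genes have several starts. On both strands, ATGCAAAT, the octamer of the OCT factors, was in none of the 8 windows and in 1.74% of all 32817 windows. CCCNNGGG, a core bound by EBF1, was also in none (13.7% of all windows). The longer EBF palindrome, the same core with T before and A after it, was in none either (0.905% of all). Only exact matches to these letters were counted, so a site that departs from them would be missed. GAGGAA, a core bound by PU.1 and other ETS factors, was in 2 of the 8 windows (28.3% of all windows), which belong to 2 of the 5 genes (31.2% of all genes with a window), and the stretches of 30 bases around these matches are shown 5′ to 3′ on the strand of the gene, with the match, read as its reverse complement, in capitals. The Cd79a match begins 140 bases before the start of the gene and the Ebf1 match 130 bases before the second of its 2 starts.
Cd79a, chr7:24897345-24897374 (+ strand): ggtgcagggcagTTCCTCtccactcagagc
Ebf1, chr11:44620086-44620115 (+ strand): ccacggtcacgtTTCCTCtccacgcagcgc
Such matches are a description of the letters and not a record of binding.

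As a set, the 8 genes had lower levels in the WT Mo group than in the PMN group. The groups did not overlap for 6 of the 8 (all but Ms4a1 and Cr2), where 26.4% of the 11491 genes tested lay apart in this direction, and 0 of the 8 lay apart in the other direction, where 26.2% of all genes did. The median log2 difference of the 8 genes was -0.35, beside 0.01 for all genes tested. With replicates 2 and 3 only, whose library numbers in the labels are later than those of replicate 1, it was -0.34. Each of the 8 genes was lower on the WT Mo side in all 3 same-numbered pairs of samples, as were 37.8% of all genes, and 38.3% were higher in all 3. Because the genes were chosen with results of these data known, these counts are a description and no test was made of them.

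The direction depended on how the samples were scaled. With every sample brought to the same total, the log2 differences of Cd79a, Cd79b and Ms4a1 stayed negative at -0.21, -0.18 and -0.15, and those of Blk, Fcer2a, Cr2, Ebf1 and Pax5 became positive at 0.12, 0.13, 0.20, 0.07 and 0.20. This rescaling shifts all genes of a sample alike, so differences relative to the median of all genes could hardly change with it. Relative to that median the 8 genes had a median of -0.36. Each of the 8 was lower than it, from -0.66 for Cd79a to -0.25 for Pax5. With quantile normalisation, which does not shift all genes alike, the median of the 8 was -0.11 and all 8 values were negative. Relative to the median of all genes it was then -0.17.

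In the comparison of genotypes 3 of the 8 genes, Cd79b, Fcer2a and Pax5, were higher in every DKO sample than in every WT Mo-MDSC sample, where 7.96% of the 11451 genes tested lay apart in this direction. Of the 8 log2 differences 7 were positive, with a median of 0.22 beside -0.02 for all genes tested. With replicates 2 and 3 only the median was 0.24. Without DKO replicate 3 it was 0.11, with Blk at 0.02, Pax5 at 0.11 and Ebf1 at -0.11, and without DKO replicate 2 it was 0.31, with Cr2 at 0.09. Relative to the median of all genes, the values ran from -0.14 for Cr2 to 0.48 for Fcer2a. Bringing the samples to the same total moved the log2 difference of Cr2 itself to just above 0, while the others stayed positive.

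**Figure D2:**
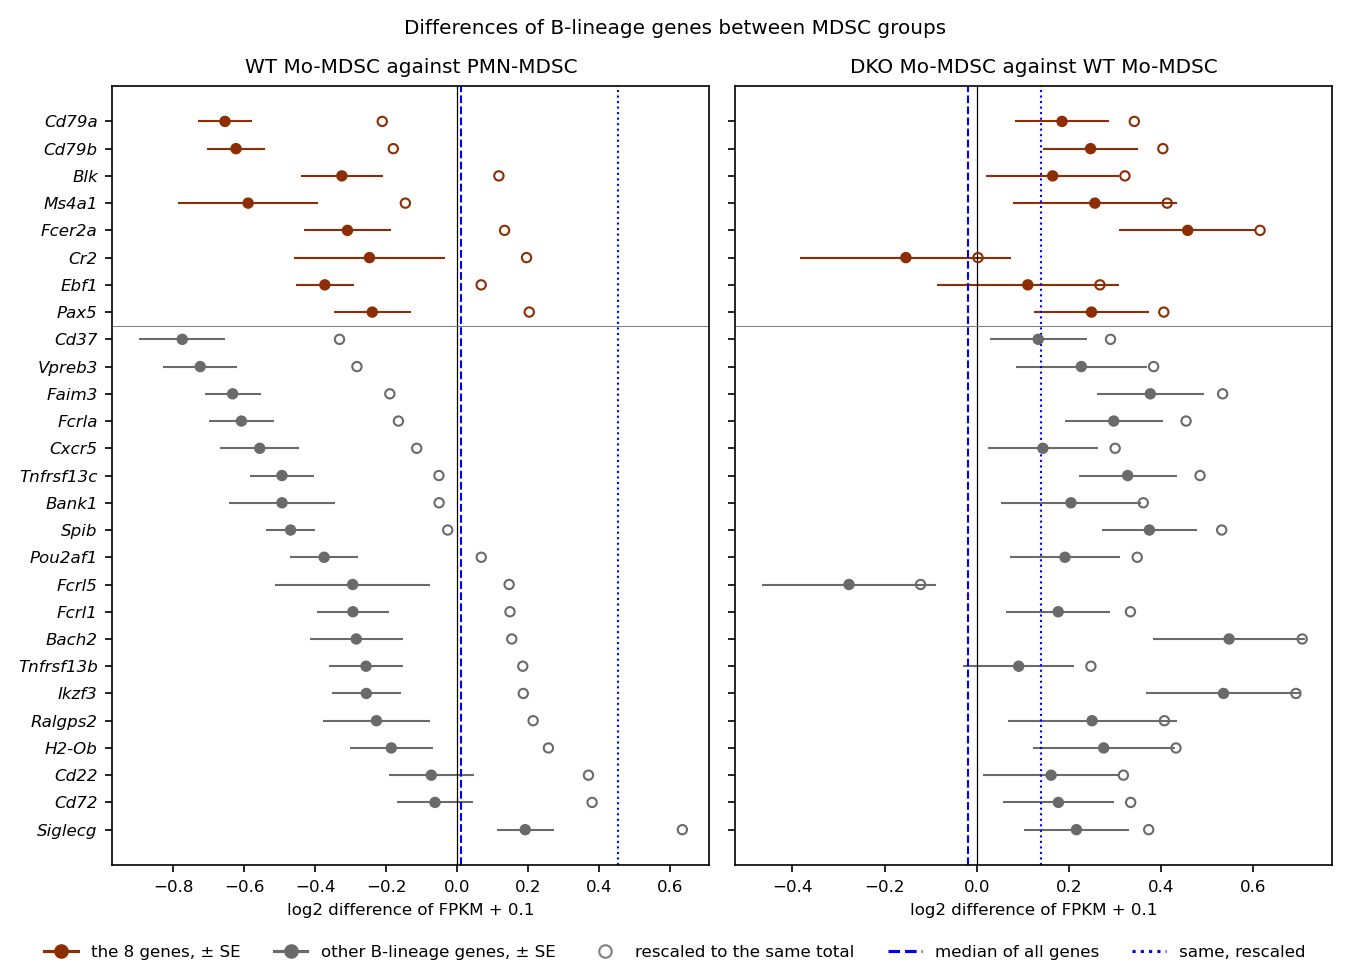
Log2 difference of FPKM + 0.1 (x axis) for the 8 genes and 19 other B-lineage genes (y axis), for WT Mo-MDSC against PMN-MDSC (left) and DKO against WT Mo-MDSC (right). Filled points with bars are values as deposited ± SE from 3 samples per group, open points are after rescaling to the same total, and the dashed and dotted lines are the medians of all genes for each; on the left all 8 filled points are below 0 and 5 of the 8 open points above it.

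The order of the group means was PMN-MDSC, DKO Mo-MDSC, WT Mo-MDSC for 5 of the 8 genes. Fcer2a and Pax5 had their highest mean in DKO Mo-MDSCs, above PMN-MDSCs by less than the spread, and Cr2 its lowest there. PMN-MDSCs and DKO Mo-MDSCs, which differ in both subset and genotype, were apart for Cd79a and Cd79b and overlapped for the other 6 genes. The share of all genes apart between these groups was not computed, so this is a description only.

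The samples of a group differed from each other in much the same way for all 8 genes. In PMN-MDSC replicate 1, WT Mo-MDSC replicate 1 and DKO replicate 3, each of the 8 genes was above the mean of its group on the log2 scale, with medians of 0.16, 0.10 and 0.27. In PMN-MDSC replicate 2 and DKO replicate 2 each of the 8 was below it, with medians of -0.08 and -0.25. DKO replicate 3 was the highest of its group for 7 genes and DKO replicate 2 the lowest for 7. The DKO samples spread more widely than the WT Mo-MDSC samples for Ebf1, with coefficients of variation of 30.3% and 5.41%, and for Pax5, with 17.3% and 5.03%.

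**Figure D3:**
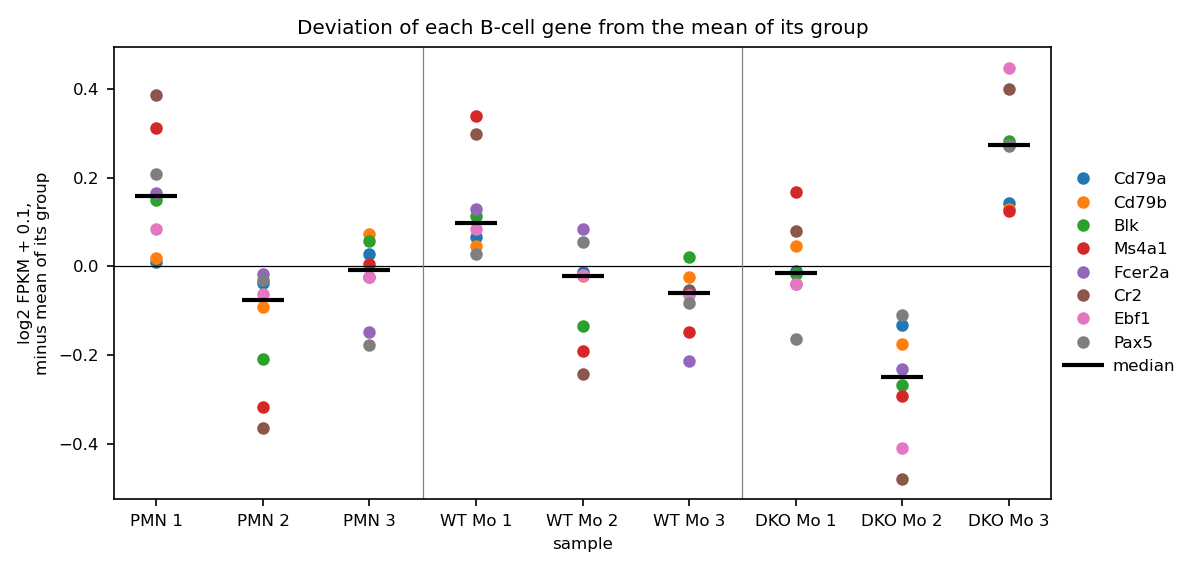
Deviation of each of the 8 genes from the mean of its group (y axis, log2 of FPKM + 0.1) in each of the 9 samples (x axis); points are genes and the black bars their median. All 8 points are above 0 in PMN 1, WT Mo 1 and DKO Mo 3 and below 0 in PMN 2 and DKO Mo 2.

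The correlation of these deviations between 2 of the genes ranged from 0.372 to 0.956 over the 28 pairs, with a median of 0.801. It is given as a description over 9 samples, in which the genes share each library and its depth. The mean deviation of the 19 other B-lineage genes followed that of the 8 with r = 0.999, while for single genes of that list r ran from -0.379 to 0.988. For other lists it was 0.797 for T cells, 0.809 for MHC class II, -0.316 for plasma cells and -0.491 for erythroid genes.

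Some of the genes did not keep 1 ratio to each other across the groups. Relative to Cd79b in the same sample, Fcer2a was at 0.124 to 0.159 in the PMN group, 0.157 to 0.192 in the WT Mo group and 0.195 to 0.228 in the DKO Mo group. Blk was at 0.127 to 0.151 in the PMN and at 0.156 to 0.177 in the WT Mo group, Pax5 at 0.0925 to 0.126 and 0.138 to 0.151, and Ebf1 at 0.0319 to 0.0357 and 0.0394 to 0.0416. Ms4a1 was at 0.378 to 0.542 and 0.402 to 0.555, and Cr2 at 0.0958 to 0.150 and 0.129 to 0.179. These ratios do not depend on the scaling of a sample. For Blk, Pax5 and Ebf1 those of the PMN and WT Mo groups did not overlap. For Fcer2a they overlapped narrowly, with the DKO samples above both, and for Ms4a1 and Cr2 they overlapped. In the DKO Mo group Blk was at 0.150 to 0.178, Pax5 at 0.124 to 0.159 and Ebf1 at 0.0313 to 0.0461, which overlapped both other groups. Cd79b itself had a log2 difference of -0.62 between the subsets, so a gene that fell less rose relative to it. The share of all genes apart by such a ratio was not computed.

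Genes of the B lineage outside the 8 were read from a list of 26, of which 19 were in the files by symbol and all 19 passed the filter of at least 1 FPKM in 3 of 6 samples. The immunoglobulin genes Ighm, Ighd and Igkc were not used here, as their symbols were not matched. Of the 19, 9 were lower in the WT Mo group than in the PMN group at an adjusted p below 0.05 and 0 were higher (limma, Benjamini-Hochberg over 11491 genes), where 20.6% of all genes were called lower, 18.5% higher and 39.1% in either direction. At an unadjusted p below 0.05 and a fold change above 2, the threshold of the study for genes higher in Mo-MDSCs, 0 of the 19 were higher (3.55% of all genes), and at its inverse, a fold change below 0.5, 0 were lower (6.65%). The median log2 difference of the list was -0.29, beside 0.01 for all genes. With the replicate number as a block, since same-numbered samples of the WT groups varied together, 15 of the 19 were lower (29.7% of all genes) and 1, Siglecg, was higher (27.6% of all genes). With every sample at the same total, 1 was lower and 2 were higher, where 6880 of 11970 genes were called in either direction. The shares by direction were not computed for that scaling.

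Among the 9 genes that fell were receptors and adaptors of mature B cells. Cd37, a tetraspanin of B cells and other leukocytes, was at 307, 316 and 407 FPKM in the PMN group and at 193, 195 and 210 FPKM in the WT Mo group (log2 difference -0.77 ± 0.121 SE, adjusted p = 0.00249). Faim3, which encodes the Fc receptor for IgM, was at 228, 200 and 213 FPKM and at 143, 137 and 133 FPKM (-0.63 ± 0.079, adjusted p = 0.000952). In both genes every PMN-MDSC sample was above every WT Mo-MDSC sample. Vpreb3 changed by -0.72, Fcrla by -0.61, and Cxcr5, which guides B cells into follicles, by -0.56 on the log2 scale. The receptor for the survival factor BAFF, Tnfrsf13c, the adaptor Bank1 and the transcriptional regulators Spib and Pou2af1 changed by -0.49, -0.49, -0.47 and -0.37. With every sample at the same total these 4 were at -0.05, -0.05, -0.03 and 0.07, Cxcr5 was at -0.11 and Cd37 at -0.33. Under this scaling 1 of the 19 genes was called lower, where 6880 of 11970 genes were called in either direction.

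Other genes of the same lineage did not pass the test between the subsets. Cd22, an inhibitory lectin of B cells, was at 123, 96.3 and 108 FPKM in the PMN group and at 117, 94.8 and 99.1 FPKM in the WT Mo group. Its samples overlapped and its log2 difference was -0.07 (95% interval -0.36 to 0.21, adjusted p = 0.663, limma). H2-Ob, a chain of the MHC class II-like protein H2-O of B cells, had a log2 difference of -0.19 (adjusted p = 0.248, limma).

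The 27 B-lineage genes described in all differed in the length of their transcripts, and this was set beside their differences after the values had been seen. The longest coding transcripts (GENCODE M21) were 1457 bases for Cd79a and 1431 bases for Cd79b, and 6212, 5981 and 8004 bases for Cr2, Ebf1 and Pax5. The 5 shortest of the 27, Vpreb3, Cd79b, Cd79a, Faim3 and Fcrla, all had log2 differences at or below -0.61 between the subsets, and the 5 longest, Ebf1, Cr2, Ralgps2, Pax5 and Bach2, lay between -0.37 and -0.23. The correlation of the difference with log2 length was 0.481 over the 27 genes, 8 of which were chosen, and 0.0845 over the 10039 tested genes with a length. Cd37, with 2541 bases, was below the 5 shortest at -0.77, and Ms4a1, with 3075 bases, was just above them at -0.59. The part of length in these differences was not tested. Between the genotypes the correlation was -0.00894 over the 27 genes and 0.236 over 9986 genes.

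**Figure D4:**
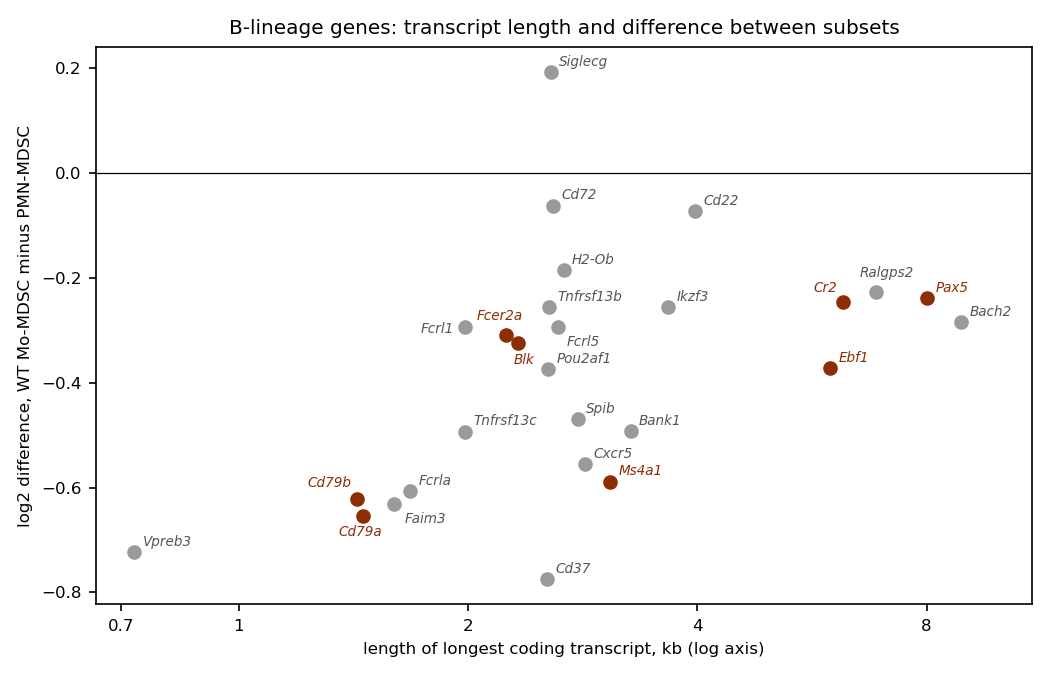
Log2 difference of FPKM + 0.1 between WT Mo-MDSC and PMN-MDSC (y axis) against the length of the longest coding transcript (x axis, kilobases, log axis) for 27 B-lineage genes; brown points are the 8 genes. Cd79a and Cd79b, with short transcripts, are at -0.65 and -0.62, and Pax5 and Cr2, with long ones, at -0.24 and -0.25.

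Between the genotypes none of the 19 other B-lineage genes was called in either direction by limma, where 0.166% of all genes were called higher and 0.0873% lower, or with the replicate block, where 0.122% and 0.0524% were. At an unadjusted p below 0.05 and a fold change under 0.75, the threshold of the study for genes lower in DKO, 0 were lower (4.43% of all genes), and above the inverse of this fold Bach2 and Ikzf3 were higher (2.57%). At an unadjusted p below 0.05, 6 of the 19 were higher and 0 lower, beside 5.27% and 9.74% of all genes. These were Fcrla, Faim3, Tnfrsf13c, Spib, Bach2 and Ikzf3, with adjusted p-values between 0.199 and 0.269 (limma). The median log2 difference of the list was 0.22 and 18 of the 19 values were positive, Fcrl5 being the exception at -0.28. Spib was at 81.3, 79.9 and 78.0 FPKM in WT and at 95.4, 97.0 and 119 FPKM in DKO Mo-MDSCs, a gene whose groups did not overlap (log2 difference 0.37, adjusted p = 0.199, limma).

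Other genes carry the B-cell receptor signal but are shared with myeloid cells. Of 15 such genes 9 were lower and 0 higher in the WT Mo group at an adjusted p below 0.05 (limma), beside 20.6% and 18.5% of all genes, with a median of -0.27. With the replicate block 13 were lower and 2 higher, beside 29.7% and 27.6% of all genes. The most abundant, Ptpn6, which encodes the phosphatase SHP-1, was at 498 to 580 FPKM in the PMN group and 318 to 364 FPKM in the WT Mo group. Between the genotypes 0 of the 15 were called and the median was 0.05.

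Lists of markers for other cell types place the level of the B-cell genes. Their counts of called genes between the subsets stand beside 20.6% of all genes called lower and 18.5% higher. With the replicate block these shares were 29.7% and 27.6%. The 13 T-cell genes summed to 20.4 to 34.5 FPKM over the 9 samples, with Lck as the highest, and the 9 NK-cell genes to 4.00 to 8.06 FPKM, with Nkg7 as the highest. Between the subsets 1 of 9 T-cell genes tested was lower (2 with the replicate block) and the 1 NK-cell gene tested, Nkg7, was higher in the WT Mo group (limma). Both sums were far below the 1051 to 1735 FPKM of the 8 B-cell genes. Of the 7 genes of pro-B and pre-B cells, 6 were under 1 FPKM in every sample, Vpreb2 was listed at 0 in all 9 samples, and the highest, Il7r, reached 1.22 FPKM. The defining genes of the early B lineage were thus at or near 0 where Cd79a was at 353 FPKM or more.

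Plasma-cell genes followed another pattern. Igj, the J chain of secreted IgM and IgA, made up most of their sum and was at 1380, 2877 and 1140 FPKM in the PMN group, 944, 1875 and 796 FPKM in the WT Mo group and 825, 872 and 882 FPKM in the DKO Mo group. Replicate 2 was the highest of both WT groups, while 6 of the 8 B-cell genes were at their lowest in PMN-MDSC replicate 2 and 3 of the 8 in WT Mo-MDSC replicate 2. None of the 6 plasma-cell genes measured was called in either comparison (limma, adjusted p between the subsets 0.336 for Igj). With the replicate block 4 were lower and 2 higher between the subsets, beside 29.7% and 27.6% of all genes.

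MHC class II genes, which B cells share with dendritic cells and macrophages, summed to 8084 to 9270 FPKM in the PMN group, 6599 to 7665 FPKM in the WT Mo group and 9662 to 10249 FPKM in the DKO Mo group. The order of these groups put DKO Mo-MDSCs above PMN-MDSCs, unlike the sum of the 8 B-cell genes. Cd74, the invariant chain and the most abundant of the 8 class II genes, had a log2 difference of 0.52 between the genotypes, with adjusted p = 0.175 (limma). None of the class II genes was called there although 7 of the 8 were higher in DKO without overlap, where 7.96% of all genes were. Between the subsets 2 of the 8 were lower and 1 higher, beside 20.6% and 18.5% of all genes. With the block 5 were lower and 3 higher, beside 29.7% and 27.6%.

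Among dendritic-cell lists, the plasmacytoid list summed to 280 to 492 FPKM, nearly all of it Ly6d, which cells of the B lineage also express. Ly6d was at 383 to 461 FPKM in the PMN group and 238 to 260 FPKM in the WT Mo group, and Siglech, a defining plasmacytoid gene, stayed under 1 FPKM in every sample. Of the 4 plasmacytoid genes tested between the subsets, 2 were higher and 1 lower (2 and 2 with the replicate block). The conventional dendritic-cell list, led by Batf3, summed to 17.4 to 54.1 FPKM and was higher in WT Mo-MDSCs for 4 of 6 genes tested (18.5% of all genes).

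Erythroid genes, led by the globin Hba-a1, summed to 1831 to 4307 FPKM with 0 of 10 tested genes called in either comparison. With the replicate block 1 of them, Slc4a1, the anion exchanger of red cells, was higher in the WT Mo group (log2 difference 0.20, adjusted p = 0.0256, limma). Markers of red-pulp macrophages, led by Hmox1, which degrades heme, summed to 5160 to 9448 FPKM. Of the 8 measured, 7 were lower in the WT Mo group than in the PMN group, beside 20.6% of all genes. Hmox1 itself was higher in DKO than in WT Mo-MDSCs (log2 difference 1.06, adjusted p = 0.0299, limma), a call lost with the replicate block (adjusted p = 0.121). Between the genotypes no other gene of these lists for T, NK, dendritic, erythroid or macrophage cells was called. The median log2 difference between the subsets was -0.63 for the macrophage, 0.97 for the conventional dendritic-cell, -0.14 for the T-cell and 0.04 for the erythroid list. For the genotypes these medians were 0.29, -0.08, 0.16 and 0.48. The lists thus did not all move with the groups as the B-cell genes did, and their part in the differences was not tested. The lists of the isolated cells also moved between the subsets. The neutrophil list, led by S100a9, was lower in WT Mo-MDSCs for 6 of 9 genes tested (20.6% of all genes). The monocyte list, led by Csf1r, was higher for 7 of 8 (18.5% of all genes). Between the genotypes no gene of these 2 lists was called, but the neutrophil list had a median log2 difference of -1.41 with 5 of 9 genes lower in DKO without overlap, and the monocyte list one of -0.54 with 6 of 8, where 12.9% of all genes were.

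**Figure D5:**
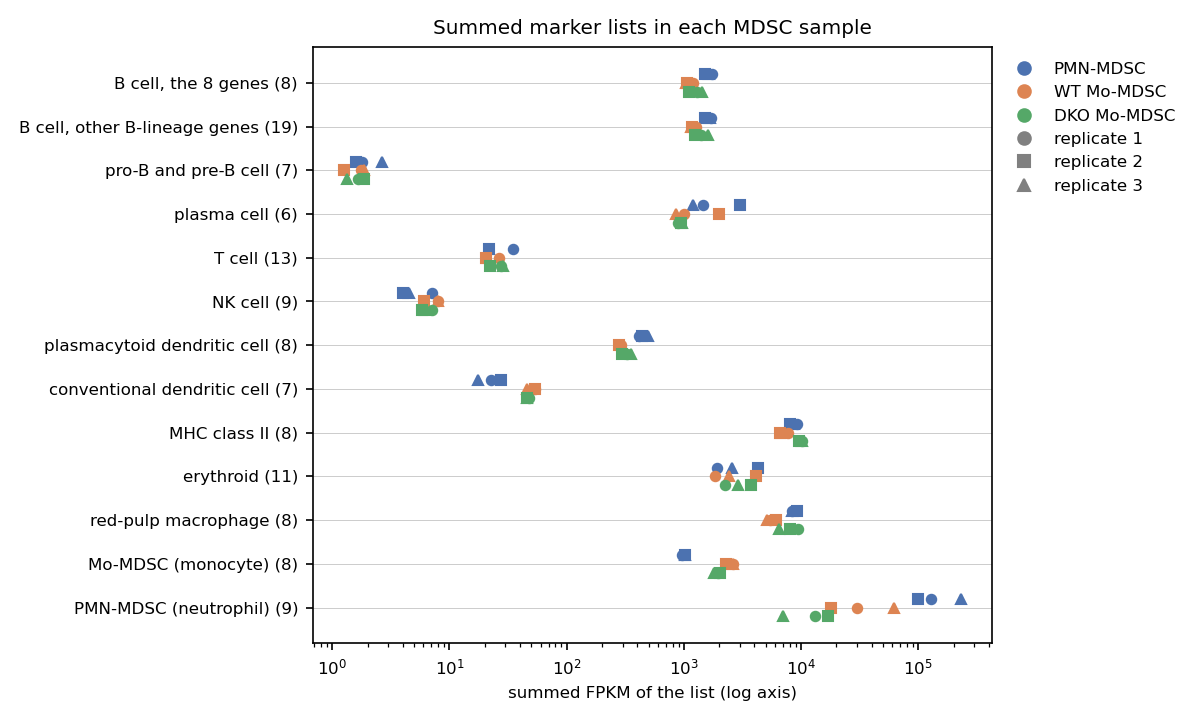
Summed FPKM (x axis, log axis) of 13 marker lists (y axis, number of genes measured in parentheses) in each of the 9 samples; colours are the groups and symbols the replicates. The sums of the 8 B-cell genes lie at 1051 FPKM and above, the T-cell, NK-cell and pro-B and pre-B lists below 35 FPKM in every sample.

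Among the genes whose level across the 9 samples was most like the mean of the 8 on the log2 scale were Fam55c, Gimap6, Abhd6, Nid1, Lnpep, Nf1, Scd1, Cmah and Dip2b, with correlations from 0.986 to 0.969 among 11718 genes compared. For the deviations from group means they were Mapk11, Cd22, Adck3, Ablim1, Scd1, Hook1, Pde4b, S1pr1, Sesn3 and Dip2b, with correlations from 0.988 to 0.979. Scd1 and Dip2b were in both sets. Cd22 was the only gene of the B-lineage list among them. The 19 genes of that list had a median correlation of 0.913 (range -0.379 to 0.988) with the deviations of the 8, beside -0.05 for all genes.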

How the data were processed

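The 8 genes, the gene lists and the tests were chosen with earlier results of these data known. The study prepared stranded mRNA libraries and mapped reads to mm10. Per the submitters' notes, TopHat2 2.0.13, Bowtie2 2.2.3, SAMtools 0.1.19 and Cuffnorm 2.2.1 were used, and the authors deposited FPKM values for 23284 symbols in each of 9 samples. The annotation and the scaling of libraries are not given in the sources used here. FPKM are not counts, and depth in reads is unknown; relative depth, from steps of genes under 0.5 FPKM, ranged from 0.809 to 1.31 of WT Mo-MDSC replicate 1.

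Groups and replicate numbers came from the labels. A gene entered the fit where 3 or more of 6 samples reached 1 FPKM. The fit was made on log2(FPKM + 0.1) with limma 3.58.1 (R 4.3.3; lmFit, eBayes with a trend, no covariates), Benjamini-Hochberg adjusted over all genes tested and called at 0.05; fold changes on this scale understate those of low genes. Simulated data with known changes were used to test the script. No test was made of the 8 genes. Deviations of same-numbered samples correlated between the WT groups (0.20 to 0.48 in the 3 pairs), so a fit that blocks on this number is given where it moved a count between these groups by over 1.5 times. Samples of a group shared at most 1 identical value among the genes at 1 FPKM or more in both. The replicate numbers of DKO and WT Mo-MDSCs were not taken as pairs.

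The genes named are the 8, the called or most abundant B-lineage genes, Cd22, the most abundant gene of each marker list and those at 0 in all samples, the 10 most alike by each measure, and the targeted genes. Ccr2, Cxcr2, S100a8, Siglech, Siglecg, Slc4a1, Vpreb3, Bach2, Ikzf3, Fcrl5, Ralgps2 and the comparison with transcript length were added after the values were seen. Alternatives were pseudocounts of 1 and 0.01, no filter, 1 FPKM or more required throughout, a joint fit of all 9 samples, rescaling to the same total, quantile normalisation, the replicate block, replicates 2 and 3 only, the thresholds of the study (fold above 2 between subsets, below 0.75 between genotypes, unadjusted p below 0.05), to which the inverse folds were added here, and leaving out each sample. The software was scipy 1.17.1, numpy 2.4.6 and pandas 2.3.3 under Python 3.11.15. Promoter windows and positions were from RefSeq (GRCm38.p6) and matched by symbol. Windows of Cd79b, Blk and Ms4a1 were not used here. A gene of the B-lineage list, left out of its counts and medians, and a gene among the 10 most alike in level are not reported here.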

Additional observations from a re-analysis of the deposited data

How the results depend on the processing

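Between the subsets the median log2 difference of the 8 B-cell genes was -0.35 as deposited, 0.0926 after rescaling to the same total and -0.11 after quantile normalisation, and -0.43 to -0.29 when each sample was left out in turn. Of the 19 other B-lineage genes, 9 were called lower and 0 higher as deposited, against 1 and 2 after rescaling, 3 and 1 after quantile normalisation, 15 and 1 with the replicate block and 0 and 0 at the thresholds of the study and their inverses; leaving out samples gave 7 to 9 lower and 0 higher. Pou2af1, lower as deposited, had a log2 difference of 0.068 after rescaling. Over all genes 4492 of 11491 were called as deposited, 6880 of 11970 after rescaling and 4583 of 11491 after quantile normalisation. There were 2759 with replicates 2 and 3 only, 1172 at the thresholds of the study, 6584 with the replicate block, and 3295 to 3864 with a sample left out.

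For DKO against WT Mo-MDSCs, 29 genes were called, 13 without the filter, 51 with all 9 samples in 1 fit, 6 with replicates 2 and 3 only and 801 at the thresholds of the study. Leaving out each sample gave 8 to 25, with 8 without DKO replicate 3, 12 without DKO replicate 1 or 2 and 9 without WT Mo-MDSC replicate 1 or 3. The replicate block gave 20 calls there, and the deviations of same-numbered samples correlated at -0.07 to 0.35, so the pairing was not used. Of the 19 B-lineage genes 0 were called under every alternative on adjusted p-values, and 2, Bach2 and Ikzf3, were higher at the inverse of the study's threshold. The median of the 8 genes stayed positive, from 0.11 to 0.31 with a sample left out. The cause of these changes was not tested, apart from the samples or genes that an alternative leaves out by its construction. The files hold no read counts, so the limit that depth sets on a single gene was not given.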
